A study of Mus musculus with 10 samples.

Results

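H3K4me1 and H3K27me3 were compared in Glast+ cells of the mouse retina, to find where the first mark lay inside islands of the second. H3K4me1, the single methylation of lysine 4 on histone H3, is deposited chiefly by the Kmt2c and Kmt2d enzymes and is found at enhancers and on the flanks of promoters. H3K27me3 is placed by Polycomb repressive complex 2, whose catalytic subunit is Ezh2 or Ezh1, and is read by Cbx subunits of Polycomb repressive complex 1. In stem cells, enhancers and promoter flanks that carry both have been called poised, usually with the added condition that acetylation of lysine 27 is missing. Many of them lie beside genes for developmental transcription factors and signalling ligands. Neither lysine 27 acetylation nor expression was measured in these samples, so whether a site was poised could not be checked, and the sites are named here by the 2 marks alone.

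The cells were Glast+ cells taken from retinas of C57BL/6 mice at P28 (day 28 after birth). Glast, the glutamate transporter encoded by Slc1a3, is a marker of Müller glia, the main glia of the retina, and the purity of the isolated cells is not given in the sources used here. Chromatin of 25000 cells entered each immunoprecipitation, and libraries made from 500 pg of DNA were read as 50-bp single ends. The comparison used 4 of the 10 samples, H3K4me1 and H3K27me3 from 2 experiments each, and lists of H3K4me3 and H3K9me3 islands from the same 2 experiments served as readouts that did not enter the classes. No label says which animals an experiment drew on, so the spread between Exp1 and Exp2 may be biological or technical. With 2 experiments a mark, an exact permutation test of 2 against 2 could not give a two-sided p below 0.333, and differences are given here by the value in each experiment, without tests.

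The lists held 52342 (Exp1) and 37200 (Exp2) islands of H3K4me1, with a median width of 3200 and 3000 bp. They held 7743 and 4105 islands of H3K27me3, with a median width of 50000 and 80000 bp. Widths were multiples of 200 bp for H3K4me1 and of 5 kb for H3K27me3. Neighbouring islands were never closer than 800 bp and 35 kb, respectively, so H3K27me3 was called at a coarser resolution, and short gaps in it, for instance at an active promoter, would not be seen. Each list pools many cells, so a base under both marks need not carry them in the same cell. The H3K4me1 list of Exp2 stood apart from that of Exp1 inside H3K27me3, with larger p-values there and, on the X chromosome, most of its length there. For the main counts the values of each experiment alone are given as well. Read depth is unknown, because the files hold islands and a p-value for each and no counts.

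Each of 21887 protein-coding genes on the chromosomes of the lists was placed in a class by the bases within 1 kb of either gene end that were covered in both experiments. H3K4me1 lay inside H3K27me3 at an end of 1472 genes (6.73% of all genes). H3K4me1 without H3K27me3 was found at 10272 genes (46.9%), and H3K27me3 without H3K4me1 at 3457 genes (15.8%). Both marks without a shared base were found at 172 genes, and neither at 6514. Genes carrying both marks included the eye field factors Pax6, Lhx2 and Sox2, the proneural factors Neurog2 and Atoh7, the ganglion cell factors Pou4f1 and Pou4f2, and 6 of 6 Dlx genes. Of 16 genes of retinal progenitors and the eye field, 5 were in this class and the other 11 had H3K4me1 only. Of 16 neurogenic factors 10 were in it, and of 20 ganglion cell genes 11.

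To show the sequence these classes refer to, the 150 bases before the transcription start are printed 5′ to 3′ for 8 genes. They come from the RefSeq promoter table (build GRCm38.p6), with every CpG in capitals and on the strand of the gene. CpG is shown because promoters held by Polycomb in stem cells are typically rich in it. The 8 were picked after their classes were known, as members whose printed bases overlap no annotated gene.
Neurod2, chr11:98329646-98329795, minus strand: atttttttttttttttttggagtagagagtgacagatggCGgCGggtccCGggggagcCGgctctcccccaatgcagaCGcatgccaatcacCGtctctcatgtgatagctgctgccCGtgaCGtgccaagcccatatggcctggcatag
Cbx8, chr11:119040914-119041063, minus strand: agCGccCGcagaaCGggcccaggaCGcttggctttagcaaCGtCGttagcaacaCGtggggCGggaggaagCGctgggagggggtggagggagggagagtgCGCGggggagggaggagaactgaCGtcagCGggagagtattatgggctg
Dlx2, chr2:71546755-71546904, minus strand: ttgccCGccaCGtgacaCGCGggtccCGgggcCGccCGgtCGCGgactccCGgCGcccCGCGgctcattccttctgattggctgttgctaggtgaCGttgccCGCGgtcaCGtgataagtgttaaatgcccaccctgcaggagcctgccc
Wnt1, chr15:98789707-98789856, plus strand: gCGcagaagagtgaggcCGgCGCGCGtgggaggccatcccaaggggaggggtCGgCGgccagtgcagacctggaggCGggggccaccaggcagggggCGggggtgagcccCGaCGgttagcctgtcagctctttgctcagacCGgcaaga
Pou4f2, chr8:78436648-78436797, minus strand: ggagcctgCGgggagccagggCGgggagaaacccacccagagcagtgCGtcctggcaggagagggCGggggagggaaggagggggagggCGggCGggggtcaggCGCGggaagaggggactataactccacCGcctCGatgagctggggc
Crx, chr7:15879956-15880105, minus strand: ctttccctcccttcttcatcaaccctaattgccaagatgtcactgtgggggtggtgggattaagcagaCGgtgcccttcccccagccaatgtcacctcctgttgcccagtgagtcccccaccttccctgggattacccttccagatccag
Wnt8b, chr19:44493322-44493471, plus strand: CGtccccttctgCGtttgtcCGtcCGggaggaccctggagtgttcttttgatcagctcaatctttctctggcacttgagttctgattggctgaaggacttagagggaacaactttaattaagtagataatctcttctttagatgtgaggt
Hoxd12, chr2:74674863-74675012, plus strand: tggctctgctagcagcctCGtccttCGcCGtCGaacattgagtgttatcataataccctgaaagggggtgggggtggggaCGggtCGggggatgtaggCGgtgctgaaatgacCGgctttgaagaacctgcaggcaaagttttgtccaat

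Neurod2, a factor of neuronal differentiation, and Cbx8, a Polycomb reader, stand for genes with H3K4me1 inside H3K27me3 and H3K4me3 at the same end. In both, all 150 bases carried H3K4me1 and H3K27me3 in both experiments, with 8 CpG in Neurod2 and 13 in Cbx8. H3K4me3 covered the Cbx8 bases in both experiments and the Neurod2 bases in Exp1 only, since the Exp2 island began 0.045 kb after the Neurod2 start. Dlx2, Wnt1 and Pou4f2 stand for genes in the same class without H3K4me3 at an end in both experiments. The 17 CpG of the Dlx2 bases lay under H3K4me1 and H3K27me3 in both experiments, and under H3K4me3 in Exp2 alone. Pou4f2, with 10 CpG, had no H3K4me3 in either experiment. In Wnt1, with 12 CpG, H3K4me1 covered these bases in Exp1 and lay elsewhere in the window in Exp2. Crx, the photoreceptor factor, stands for H3K4me1 without H3K27me3 and had 1 CpG, which is not typical of that class. Wnt8b and Hoxd12, with 4 and 8 CpG, had H3K27me3 over all bases and no H3K4me1 there. Over 17492 genes with an entry in the table, the same 150 bases held a median of 7 CpG, with quartiles of 2 and 13, and 88.0% held at least 1. Over all table bases before the start, the median was 6.4 CpG per 100 bases in genes with H3K4me1 only and 0.8 in genes with H3K27me3 only, of which 80.3% and 82.4% had an entry. In the 1119 genes with H3K4me1 inside H3K27me3 and an entry it was 5.6. The comparison with this class is void, because these are only 76.0% of its genes, so the examples show single genes and no difference in CpG between classes.

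Around individual genes, H3K4me1 formed short islands within a continuous block of H3K27me3. At Pax6 (chr2:105668896-105698410), the homeobox factor of the eye field and of amacrine and ganglion cells, H3K27me3 began at -13.9 kb from the start in Exp1 and at -8.90 kb in Exp2 and ran through the first 20 kb of the gene. Within it, H3K4me1 covered 20.7 kb (Exp1) and 14.2 kb (Exp2) of the gene and its 1-kb flanks, and 14.1 and 13.8 kb of that was inside H3K27me3. H3K4me3 covered 22.7 and 25.9 kb of the same stretch, so all 3 marks lay over much of the gene in both experiments. Pou4f2 (chr8:78433009-78436647), a factor of retinal ganglion cells, had 1 island of H3K4me1 across its start in each experiment, from -2.95 to 1.85 kb of it in Exp1 and from -1.55 to 2.05 kb in Exp2. No H3K4me3 or H3K9me3 was listed within 20 kb of that start.

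**Figure D1:**
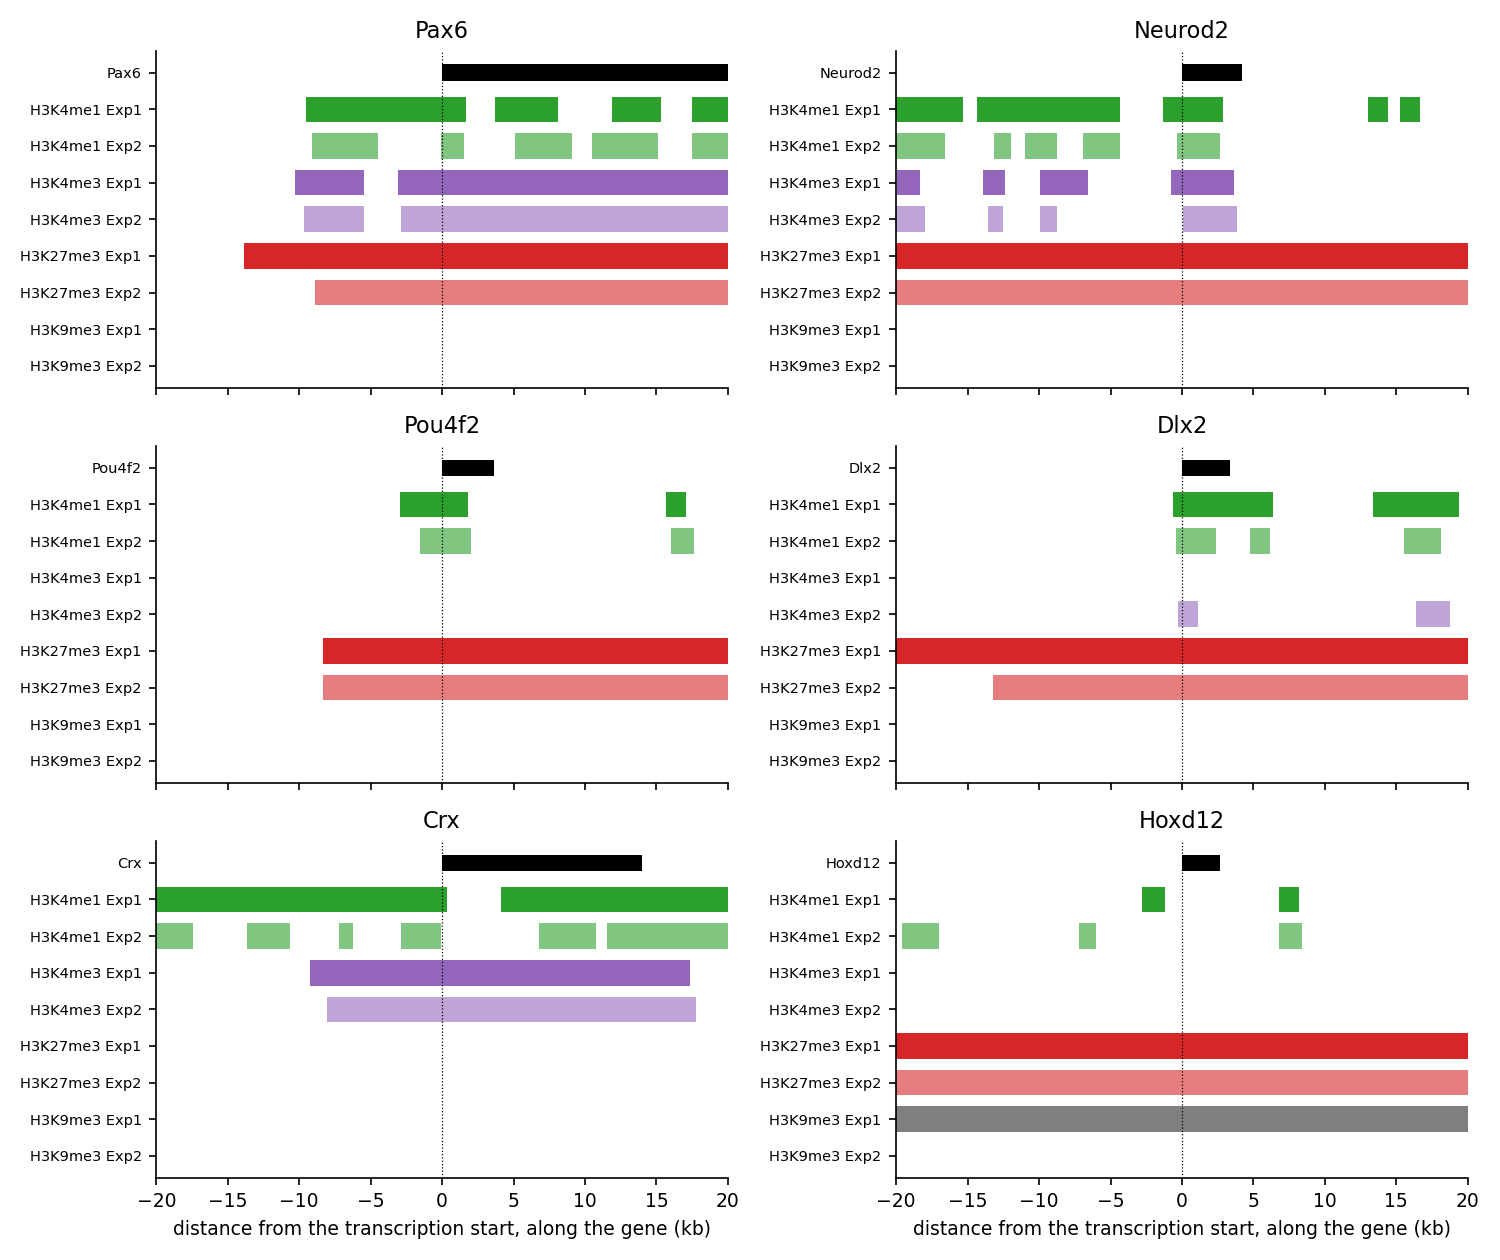
Islands of the 4 marks in each experiment within 20 kb of the transcription start of 6 genes, drawn along the gene (x axis, kb; the gene in black). In Pax6, Neurod2, Pou4f2 and Dlx2, H3K4me1 islands (green) lay inside a wide H3K27me3 block (red). Crx had no H3K27me3 and Hoxd12 no H3K4me1 at its start.

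Over the whole genome, H3K4me1 lay inside H3K27me3 less often than the lengths of the 2 marks would give if they were laid independently, but the size of that deficit differed between the experiments. Shared bases came to 22.9 Mb in Exp1 and 23.8 Mb in Exp2, which was 9.11% and 16.6% of the H3K4me1 length. Leaving out the first 3 Mb of each chromosome, the log2 ratio of the shared length to the product of the 2 coverages was -1.55 in Exp1 and -0.31 in Exp2 (mean -0.93 ± 0.88 SD, n = 2). Bases covered by both marks in both experiments came to 9.14 Mb, or 7.67% of the H3K4me1 found in both. Of the shared length in either experiment, only 39.9% (of Exp1) and 38.5% (of Exp2) was found again in the other. That count asks both marks to recur. For H3K4me1 alone, in bases with H3K27me3 in both experiments, 52.3% of the Exp1 length and 46.3% of the Exp2 length was found again, and in bases without H3K27me3 in either experiment 47.1% and 90.3%. Inside H3K27me3 the share was thus higher than outside for Exp1 and lower for Exp2. These shares depend on the lengths listed. Outside, H3K4me1 covered 222.8 Mb in Exp1 and 116.2 Mb in Exp2, and inside 17.5 and 19.7 Mb. Taken over the bases listed in either experiment, the fraction found in both was lower inside (0.325) than outside (0.448).

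The log2 ratio moved with the list of either mark. Exchanging H3K27me3 lists gave a log2 ratio of -1.13 for H3K4me1 of Exp1 with H3K27me3 of Exp2, and -0.75 for H3K4me1 of Exp2 with H3K27me3 of Exp1. H3K4me1 islands wholly inside H3K27me3 were called with less certainty in Exp2. Their median p as deposited was 1.9e-06, against 7.6e-12 for islands outside, and 11.0% of them had a p above 0.05, against 0.968% outside. In Exp1 the medians were 3.2e-16 inside and 4.3e-19 outside, with 0.873% and 0.0817% above 0.05. Of the Exp2 islands, 57.7% of those inside touched an Exp1 island, against 93.8% of those outside. In Exp1 the shares were 57.2% and 51.3%. On the X chromosome 63.5% of the Exp2 H3K4me1 length lay inside H3K27me3, against 8.58% in Exp1. Every autosome had a negative log2 ratio in Exp1, and all but chromosome 15 (0.13) had one in Exp2. Because of this, each statement below on a gene rests on bases covered in both experiments unless an experiment is named.

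The deficit of H3K4me1 moved with H3K9me3, the mark of constitutive heterochromatin. Where H3K27me3 lay without H3K9me3, H3K4me1 covered 7.81% (Exp1) and 6.55% (Exp2) of the bases (mean 7.18% ± 0.889 SD, n = 2). Where H3K27me3 and H3K9me3 lay together, it covered 0.909% and 3.16% (2.03% ± 1.59). The first pair of values did not overlap the second. Bases under neither broad mark had 12.5% in Exp1 and 6.00% in Exp2, so H3K27me3 without H3K9me3 was lower than these in Exp1 and not in Exp2. Bases under H3K9me3 alone had 1.22% and 0.824%. Over both experiments, 300.1 Mb of H3K27me3 also carried H3K9me3 and 125 Mb had none in either experiment, and H3K4me1 covered 0.444% of the former and 5.87% of the latter. The corresponding share outside H3K27me3 was 4.88%. Taking H3K9me3 bases out of H3K27me3, an alternative added after these values were seen, turned the log2 ratio over both experiments from -1.22 to 0.19. H3K9me3 was itself called in windows of 3 kb, and its part in the deficit was not tested.

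**Figure D2:**
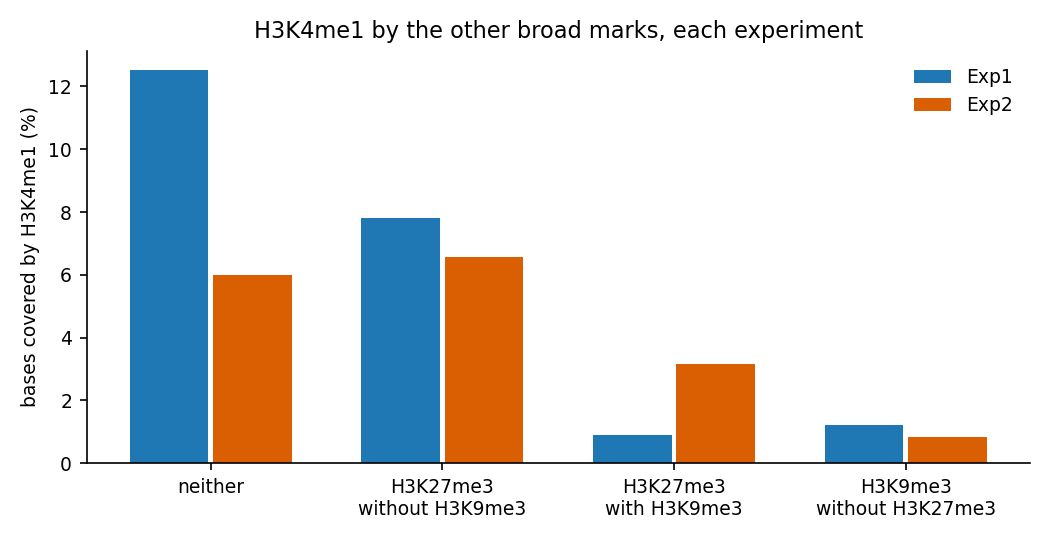
Percent of bases covered by H3K4me1 (y axis) in bases under neither broad mark, under H3K27me3 without or with H3K9me3, and under H3K9me3 alone, with 1 bar for each experiment. The bars for H3K27me3 without H3K9me3 stand at 7.81% and 6.55%, and those with both marks at 0.909% and 3.16%.

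H3K4me1 was unevenly spread over H3K27me3 regions. Of 4262 regions covered by H3K27me3 in both experiments, 1274 held any H3K4me1, and 181 of them held 50% of the shared length. Narrow regions were richer in it than wide ones. H3K4me1 covered 5.32% of the length of regions under 25 kb and 0.520% of regions of 500 kb or more. In the separate experiments these shares were 4.07% and 1.14% in Exp1, and 15.8% and 3.64% in Exp2. Near borders, H3K4me1 covered 2.27% of bases in the 5 kb just outside H3K27me3 and 5.77% of bases 200 to 500 kb away. Inside, it covered 3.40% of the outermost 5 kb and 0.370% of bases 200 to 500 kb from a border. In Exp1 it covered 0.905% of bases 200 to 500 kb inside and 0.583% of those deeper. In Exp2 these shares were 2.82% and 5.48%, the deepest being above the 4.99% found over 500 kb outside, so the fall with depth did not hold throughout in Exp2. Stretches within 10 kb of a border held 29.2% of the shared length and 17.1% of the H3K27me3 length (25.2% and 19.6% in Exp1, 22.8% and 14.8% in Exp2). In Exp2 the share in the outermost 5 kb (7.33%) was above that of every outside interval. In Exp1 (4.14%) it was below all of them.

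**Figure D3:**
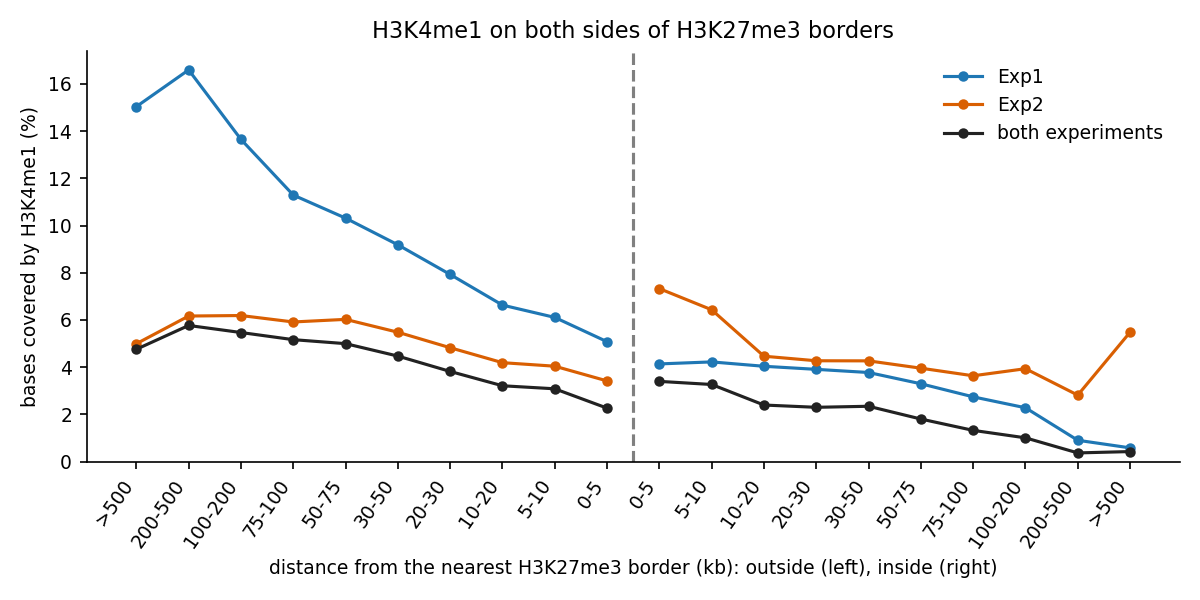
Percent of bases covered by H3K4me1 (y axis) by distance from the nearest H3K27me3 border (x axis, kb), outside on the left of the dashed line and inside on the right, for each experiment and for bases covered in both. Over both experiments the line falls towards the border from 5.77% to 2.27%, stands at 3.40% just inside and falls to 0.370% deep inside.

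Most H3K4me1 regions were either outside H3K27me3 or wholly within it. Of 33380 regions covered by H3K4me1 in both experiments, 29937 (89.7%) lay outside the H3K27me3 covered in both, 3255 wholly inside and 188 across a border. The shared parts made 3443 regions with a median width of 2200 bp. Of these, 1722 (50.0%) lay within 1 kb of a gene end, 995 (28.9%) elsewhere in a gene and 726 (21.1%) between genes. For comparison, H3K27me3 of either experiment was removed from H3K4me1, which left 28292 regions, called clear here. Among these clear regions the shares were 40.3%, 48.4% and 11.3%. H3K4me3 in both experiments touched 42.4% of the shared regions and 41.0% of the clear ones. Away from gene ends, where H3K4me1 without H3K4me3 is the usual look of a distal site, 720 of the 995 regions within genes and 517 of the 726 between genes had no H3K4me3 in either experiment. These shares, 72.4% and 71.2%, were below the 81.4% and 84.4% of the clear regions in the same places. H3K9me3 in both experiments touched 13.1% of the shared regions and 0.276% of the clear ones.

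The genes with H3K4me1 inside H3K27me3 at an end mostly carried H3K4me3 as well, the mark of active or bivalent promoters. H3K4me3 in both experiments was present at an end of 73.1% of the 1472 genes, against 58.6% of all genes, 91.9% of genes with H3K4me1 only and 6.77% of genes with H3K27me3 only. Counted in each experiment, the share was 74.0% (Exp1) and 80.2% (Exp2) for the first class, a mean of 77.1% ± 4.42 (SD, n = 2). For genes with H3K4me1 only it was 93.0% ± 0.571, and for genes with H3K27me3 only 9.01% ± 0.552. These 3 ranges did not overlap. H3K9me3 was present at an end of 12.0% of the 1472 genes, against 13.4% of all genes, 0.876% of genes with H3K4me1 only and 64.3% of genes with H3K27me3 only. By these 2 marks the 1472 genes divided into 928 with H3K4me3 alone, 148 with H3K4me3 and H3K9me3, 28 with H3K9me3 alone and 368 with neither. The 1076 genes with H3K4me3 had a median of 2.8 kb of shared bases over the gene and its flanks. The 396 without H3K4me3 had 2.2 kb. Genes with H3K4me3 were also longer, with a median length of 15.56 kb against 10.57 kb. As a share of the gene and its flanks the order was reversed, with medians of 17.60% with H3K4me3 and 19.03% without. For 1119 of the genes the strand is known from the RefSeq promoter table. By strand, the marks were shared at the upstream gene end alone in 764, at the other end alone in 98 and at both in 257. The upstream end need not be the listed start. Over 17492 genes with an entry, the start was at that end in 10583 and within 1 kb of it in 15752. The 1472 genes lay in 918 H3K27me3 regions, 637 of which held 1 such gene and the fullest 31, so neighbouring members share a region and are not independent.

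**Figure D4:**
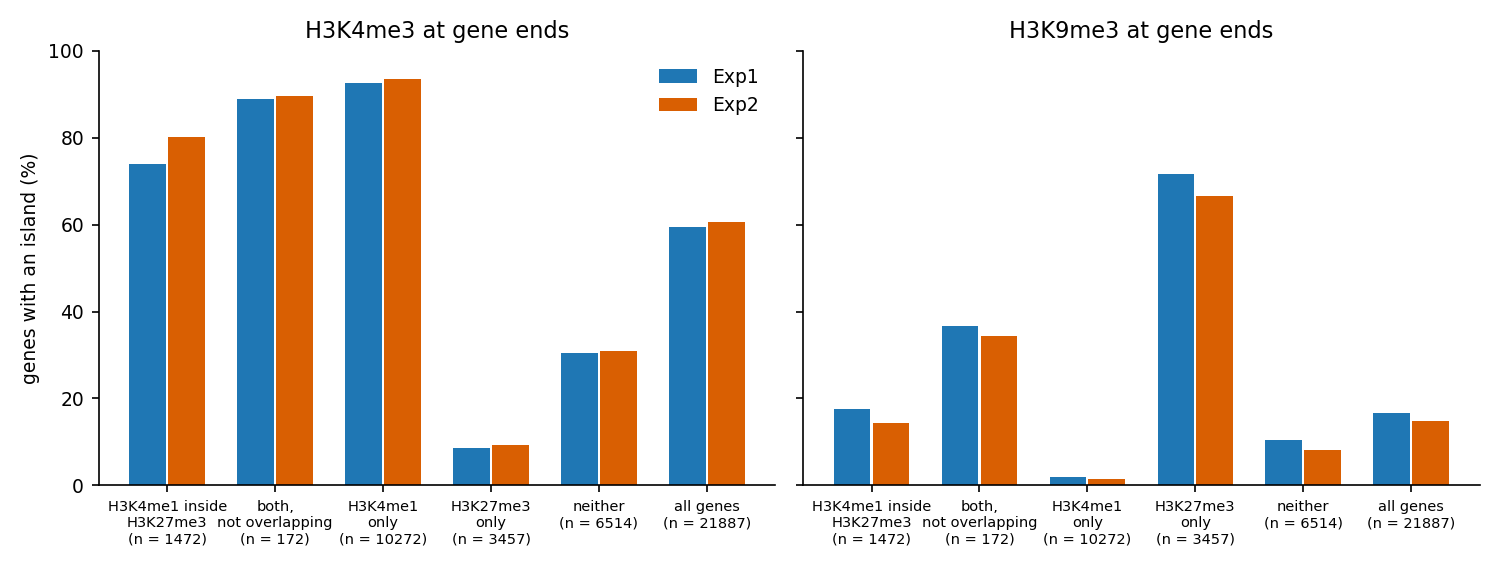
Percent of genes with an H3K4me3 island (left) or an H3K9me3 island (right) within 1 kb of an end (y axis), by class of the gene, with 1 bar for each experiment and the number of genes under each class. For H3K4me3, genes with H3K4me1 inside H3K27me3 stand at 74.0% and 80.2%, between those with H3K4me1 only and those with H3K27me3 only.

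Membership varied between the experiments. H3K4me1 lay inside H3K27me3 at an end of 2214 genes in Exp1 (10.1%) and of 2140 in Exp2 (9.78%), a mean of 9.95% ± 0.239 (SD, n = 2). The same class was given to 1492 genes in both. Of the 2214 genes of Exp1, 346 had H3K4me1 only and 238 H3K27me3 only in Exp2. Of the 2140 genes of Exp2, 406 had H3K4me1 only and 193 H3K27me3 only in Exp1. Over gene bodies instead of ends, bases covered in both experiments gave 1696 genes (7.75%) with H3K4me1 inside H3K27me3, 11234 (51.3%) with H3K4me1 only and 3288 (15.0%) with H3K27me3 only. Among genes with H3K27me3 only at the ends, 189 had H3K4me1 inside H3K27me3 in the body.

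Markers of Müller glia were used to check the label. Of 22 such genes, 13 had H3K4me1 only at an end and 2 had it inside H3K27me3, against 46.9% and 6.73% of all genes. The count with H3K27me3 only was 0, against 15.8% of all genes. Glul, glutamine synthetase, had H3K4me1 over 6.60 kb of its gene and flanks in Exp1 and 0.472 kb in Exp2, with no H3K27me3 in either. Slc1a3 itself had 27.7 kb of H3K4me1 in Exp1 and none in Exp2, with H3K4me3 over 5.41 and 4.80 kb and no H3K27me3. Aqp4, the water channel of glial endfeet, had 7.6 and 2.8 kb of H3K4me1 within the gene and none of H3K27me3. The 2 markers inside H3K27me3 were Rlbp1 and Sox9. Rlbp1, the retinaldehyde-binding protein of the visual cycle, lay whole in H3K27me3 in both experiments (19.4 kb each), with H3K4me1 over 17.4 kb in Exp1 and 2.45 kb in Exp2 and H3K4me3 over 9.05 and 4.80 kb. Sox9, a glial and progenitor factor, shared 3.79 and 4.19 kb. Of 22 rod markers 17 had H3K4me1 only, including Nrl (7.20 and 6.80 kb) and Crx (12.2 and 8.41 kb), with no H3K27me3, so the lists also held active-type marks at genes of photoreceptors. The share with H3K4me1 only was 59.1% for Müller glia markers and 77.3% for rod markers, and each list had 2 of 22 genes inside H3K27me3. By these counts the check did not single out Müller glia. The share of other cells in the preparation was not tested.

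Among genes of retinal progenitors, 5 of 16 had H3K4me1 inside H3K27me3 at an end (Pax6, Lhx2, Sox2, Fgf15 and Nr2e1), and the other 11 had H3K4me1 only, against 6.73% and 46.9% of all genes. All 5 carried H3K4me3, as did 73.1% of the 1472 genes in the class. Lhx2 (chr2:38339271-38369737), a LIM-homeobox factor of the optic vesicle and of Müller glia, shared 18.3 kb in Exp1 and 11.7 kb in Exp2. Sox2 (chr3:34649995-34652461), an HMG-box factor kept on in Müller glia, lay whole within H3K27me3, and H3K4me1 covered 4.47 kb in Exp1 and 2.81 kb in Exp2. H3K4me3 covered the whole of Sox2 in both. Rax, Six3 and Six6, homeobox factors of the eye field, had H3K4me1 only at their ends. Sfrp2, a secreted Wnt antagonist, joined the class in Exp2 alone.

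Neurogenic factors, the basic helix-loop-helix genes and their partners that drive neuron birth, were in this class in 10 of 16 cases, the same count in each experiment, against 6.73% of all genes (10.1% in Exp1 and 9.78% in Exp2). Neurog2 (chr3:127632733-127635636) shared 3.27 kb in Exp1 and 3.07 kb in Exp2, all of its H3K4me1, within H3K27me3 over the whole gene. Neurog1 shared 3.70 and 2.38 kb, and carried no H3K4me3. Atoh7, required for ganglion cells, shared 1.4 kb in each experiment. Atoh1 shared 2.68 kb in each. Olig2 shared 4.85 and 3.05 kb, had no H3K4me3 and lay whole in H3K9me3 in both experiments. Neurod1, Dll1 and Insm1 were not among them and were without H3K27me3 at an end.

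Markers of retinal neurons were split between the classes. H3K4me1 lay inside H3K27me3 at an end of 11 of 20 ganglion cell genes, 6 of 15 amacrine genes, 5 of 6 horizontal cell genes and 7 of 16 bipolar genes, beside 4 of 13 cone genes and 2 of 22 rod genes, against 6.73% of all genes. The count of rod genes is near that background. Pou4f1 (chr14:104461675-104468118), like Pou4f2 a POU factor of ganglion cells, shared 4.33 kb in Exp1 and 2.8 kb in Exp2, with 1.6 and 1.2 kb of H3K4me3. Isl1, a LIM-homeobox factor of ganglion and bipolar cells, shared 2.2 and 1.0 kb, and H3K4me3 ran over the whole gene in both experiments. Onecut1 and Lhx1, factors of horizontal cells, shared 5.0 and 3.2 kb, and 4.73 and 4.73 kb. Gad1, which makes the amacrine transmitter GABA, shared 8.2 and 6.8 kb. The bipolar glutamate receptor gene Grm6 shared 4.03 kb in each. Calb2, the amacrine marker calretinin, had H3K27me3 over 27.7 kb in each experiment and no H3K4me1 at all. The 2 rod genes, Guca1a and Guca1b, are neighbours in 1 H3K27me3 region. They encode activators of guanylate cyclase and shared 16.6 and 11.6 kb, and 3.97 and 3.97 kb.

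Families of developmental transcription factors held many members of the class. Over 11 families, 84 of 170 genes (49.4%) had H3K4me1 inside H3K27me3 at an end, against 6.73% of all genes, with 102 in Exp1 and 90 in Exp2. H3K4me3 in both experiments was present at 29 of the 84 (34.5%), against 73.1% of all 1472 genes in the class. Dlx genes, homeobox factors of forebrain interneurons and of the limb, were in the class in 6 of 6 cases, in 3 H3K27me3 regions, and none had H3K4me3 at an end in both experiments. Dlx2 shared 4.99 kb in Exp1 and 2.8 kb in Exp2, Dlx5 4.0 and 1.6 kb, and Dlx3 4.50 and 2.90 kb. Lhx genes were in it in 7 of 8 cases and Nkx genes in 11 of 14, the latter with no H3K4me3 common to both experiments. Nkx2-2 shared 8.8 and 6.0 kb of 21.0 kb of H3K27me3. Of 44 Fox genes 22 were in the class, 10 of these with H3K4me3. Of 19 Sox genes 10 were in it, and 4 of 6 Irx, 4 of 9 Pax and 3 of 6 Gata genes were. The sine oculis homeobox genes had 3 of 6 members in the class. When gene bodies were added, the counts reached 6 of 6 Irx, 8 of 8 Lhx, 7 of 9 Pax, 5 of 6 Gata, 9 of 13 Tbx and 11 of 39 Hox genes. Those of Dlx, Nkx, Sox, Fox and sine oculis genes did not change. A wider window also takes in more of all genes, with 7.75% in the class by the body alone. Gata4 (chr14:63198914-63271712), a zinc finger factor of heart and endoderm, was among the genes added by the body, and shared 5.8 and 3.2 kb within 72.7 kb of H3K27me3. Tfap2a, a factor of neural crest and amacrine cells, shared 9.0 and 4.2 kb within 26.4 kb, in the body in both experiments and also at an end in Exp1.

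Hox genes, which pattern the trunk and hindbrain, mostly had H3K27me3 without H3K4me1 at their ends. Of 39 genes 30 had H3K27me3 only and 9 had H3K4me1 inside it, in 4 H3K27me3 regions, against 15.8% and 6.73% of all genes. In Exp1 alone 19 were in the class and in Exp2 alone 11. Shared stretches were short where present, such as 2.48 and 1.4 kb at Hoxa13, and 0.304 and 0.504 kb at Hoxa9. In Exp1 all 39 Hox genes also lay whole within H3K9me3, such as Hoxb3 over 42.8 kb. In Exp2 no H3K9me3 was listed at any of them, so the experiments disagree on that mark over the family.

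Ligands of signalling pathways were also among the members. Of 19 Wnt genes 14 had H3K4me1 inside H3K27me3 at an end, 16 in Exp1 and 14 in Exp2, against 6.73% of all genes (10.1% and 9.78%). They lay in 10 H3K27me3 regions, and 7 of the 14 carried H3K4me3, against 73.1% of the 1472 genes in the class. Wnt10a shared 13.4 kb in Exp1 and 7.58 kb in Exp2, Wnt5a 9.06 and 6.2 kb, and Wnt1 5.43 and 3.2 kb. Wnt8b had H3K27me3 only at its ends, with 5.67 and 2.6 kb of H3K4me1 inside it elsewhere in the gene. Bmp and Gdf genes were in the class in 7 of 20 cases and Fgf genes in 6 of 22. Bmp4 shared 6.27 and 5.2 kb, and Fgf8 5.11 and 4.6 kb. The Notch pathway had 3 of 19 genes in the class and 14 with H3K4me1 only, a class that held 46.9% of all genes. The 3 were the ligands Dll3 and Dll4 and the receptor Notch2, which shared 60.0 kb in Exp1 and 16.4 kb in Exp2.

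Of 23 genes for Polycomb proteins and H3K27 demethylases, 5 had H3K4me1 inside H3K27me3 at an end, against 6.73% of all genes. All 5 belong to Polycomb repressive complex 1, among them Ring1, Cbx2, Cbx8 and Pcgf1. They lay in 3 H3K27me3 regions. Cbx8 and Cbx2, neighbours on chromosome 11, shared 6.61 kb in Exp1 and 6.61 kb in Exp2, and 5.38 and 4.98 kb. The core subunits of complex 2, Ezh1, Eed and Suz12, had H3K4me1 only. Ezh2 had H3K4me1 over 16.7 and 2.8 kb of its gene and no H3K27me3. None of 16 genes for H3K4 methylation and demethylation enzymes was in the class in both experiments, and 2 were in Exp2 alone. Among cyclins and Cdk inhibitors 5 of 17 were, against the same 6.73%, including the cell cycle inhibitors Cdkn2a (2.62 and 1.42 kb), Cdkn2b (2.0 and 1.4 kb) and Cdkn1c (3.26 and 3.0 kb) and the cyclin Ccnd2 (5.59 and 5.19 kb). Ccnd1 had H3K4me1 only.

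Among markers of other cell types, the combination was found at 1 of 12 markers of microglia (C1qa), 1 of 12 of endothelium and pericytes (Flt1), 1 of 12 of astrocytes and oligodendrocytes (Pax2), 2 of 12 of pigment epithelium (Rlbp1 and Lrat) and 2 of 16 lens crystallins. The class held 6.73% of all genes, so the lists with 1 of 12 (8.33%) are near that share. Of all genes, 46.9% had H3K4me1 only at an end, 15.8% H3K27me3 only and 29.8% neither. Of the microglia markers, 2 had H3K4me1 only at an end, 3 H3K27me3 only and 6 neither, as did Aif1. Of the endothelium and pericyte markers, 2 had H3K4me1 only, 1 H3K27me3 only and 8 neither. Pecam1 had neither at its ends, but 17.0 kb (Exp1) and 5.2 kb (Exp2) of H3K4me1 within the gene. Of the pigment epithelium markers, 3 had H3K4me1 only, 1 H3K27me3 only and 6 neither. Rpe65, the isomerase of that tissue, lay whole under H3K27me3 and H3K9me3 in both experiments with no H3K4me1. Of 12 pluripotency genes 4 were in the class, among them Pou5f1, which shared 4.57 kb in Exp1 and 4.37 kb in Exp2 and had no H3K4me3. Nanog had neither mark common to both experiments at its ends. No member of 16 housekeeping genes or of 75 cytosolic ribosomal protein genes was in the class in both experiments. With a share of 6.73% over all genes, 16 genes are too few for a count of 0 to stand out. Among 1110 olfactory receptor genes 1 was, with 674 (60.7%) under H3K27me3 only, against 15.8% of all genes. Among 353 vomeronasal receptor genes 0 were, with 295 (83.6%) under H3K27me3 only. The latter list reached 13 genes in Exp2 against 1 in Exp1. Of 397 Zfp zinc finger genes 33 were in the class (8.31%), near the 6.73% of all genes. All 33 carried H3K4me3 and 21 of them H3K9me3 as well, against 73.1% and 12.0% of the 1472 genes in the class. The count in the class was 78 in Exp1 and 47 in Exp2. Of 105 genes for keratins and keratin-associated proteins 6 were in it. Clustered protocadherin genes lie in a long cluster read from many starts. Of 57 members, 18 had both marks at their ends but no shared base, against 0.786% of all genes, and 35 had H3K27me3 only. Members that overlap can share an island, so they are not independent.

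Genes of neuronal signalling were members in some cases. Of 94 potassium channel genes 25 (26.6%) had H3K4me1 inside H3K27me3 at an end, 18 with H3K4me3. Of 92 neurotransmitter receptor genes 16 (17.4%) did, 12 with H3K4me3, and of 70 genes found by the name patterns of axon guidance families 13 (18.6%) did, 10 with H3K4me3. The class held 6.73% of all genes, and 73.1% of the class carried H3K4me3, so the H3K4me3 counts of channels and receptors are near that of the class. The pattern also takes in Unc50, which is no guidance gene and had H3K4me1 only. Kcna1 shared 4.2 kb in Exp1 and 3.8 kb in Exp2, and Grin1, the common subunit of NMDA receptors, 8.61 and 3.82 kb. The netrin receptor gene Unc5b shared 32.4 kb in Exp1 and 26.8 kb in both experiments together. Kcnc1 showed how far the experiments could part, with 3.98 kb shared in Exp1 and 29.2 kb in Exp2, where H3K27me3 covered 4.78 and 44.5 kb.

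**Figure D5:**
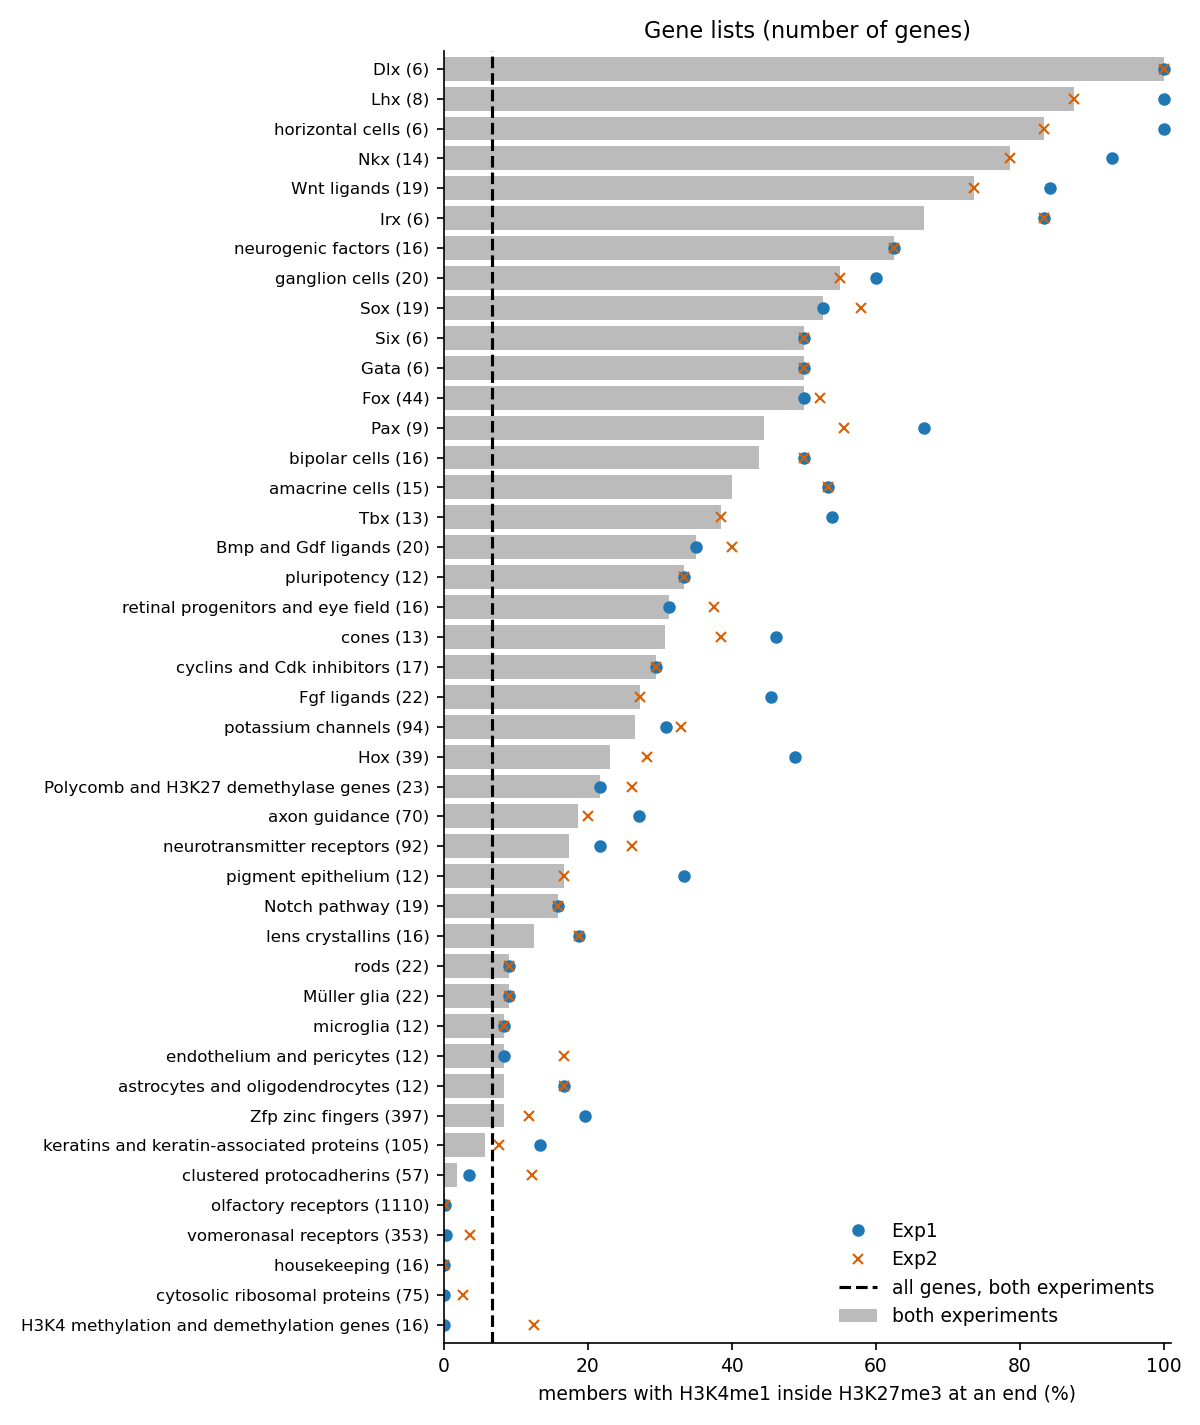
Percent of the members of each gene list with H3K4me1 inside H3K27me3 at an end (x axis), from bases covered in both experiments (grey bars) and in each experiment alone (symbols). The dashed line is the 6.73% of all protein-coding genes. Dlx, Lhx, Nkx and Wnt genes lie far to its right, and olfactory receptors, housekeeping and ribosomal protein genes to its left or at 0.

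Summed over a gene and its flanks, the most shared length lay in genes of varied kinds. Macrod1 (chr19:7056728-7198062), a mono-ADP-ribosylhydrolase gene, held the most, with 60.6 kb in both experiments together, 90.0 kb in Exp1 and 70.2 kb in Exp2. Flrt1, a leucine-rich transmembrane gene inside it, held 42.1 kb of the same bases. Zmiz1 (chr14:25457875-25666743), a transcriptional coactivator gene, held 60.0 kb, with 93.5 kb in Exp1 and 61.0 kb in Exp2. A stretch of 21.4 kb in Zmiz1 had neither H3K4me3 nor H3K9me3 in either experiment. Others among the 20 highest were the synaptic adhesion gene Sdk2 (46.2 kb), the homeobox gene Zfhx3 (41.2 kb), Srcin1 (39.8 kb), Camta1 (38.6 kb) and the neuronal splicing factor gene Rbfox3 (36.6 kb). H3K4me3 over these genes ranged from 2.4 kb (Flrt1, Exp2) to 19.2 kb (Camta1, Exp2).

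Among 16853 genes of at least 5 kb, 91 had 50% or more of their body under both marks in both experiments. Sncb, which encodes beta-synuclein, Cyth2 and Eef2, the translation elongation factor, were covered over 100% of the body. Pgap3 and Rtn4rl2 were covered over 87.2% and 86.2%. Sncb and Cyth2 had H3K4me3 in both experiments (9.34 and 9.74 kb, and 3.92 and 3.12 kb) and no H3K9me3. The 5 longest genes with the combination at an end, Gpc5, Csmd3, Prkg1, Kcnip4 and Nrg3, were 1108 to 1433 kb long and shared 1.4 to 3.2 kb each.

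The widest single stretches under both marks were of uncertain kind, since several carried every mark measured. The widest, 87.2 kb at chr8:123537201-123624400 beside Gas8, was covered by H3K4me1, H3K27me3, H3K4me3 and H3K9me3 over its full width in both experiments. A stretch of 23.0 kb at Fcgr3 and another of 21.4 kb at Hjurp, both on chromosome 1, were nearly the same. Bases listed for all 4 marks in all 8 lists came to 0.646 Mb in 249 regions, 7.07% of the shared length. Leaving them out, an alternative added after they were seen, changed the share of genes in the class from 6.73% to 6.40%. By contrast, 21.0 kb at Hic1 and Smg6 on chromosome 11 and 18.8 kb at Lmtk3, Cyth2 and Kcnj14 on chromosome 7 had no H3K9me3. The H3K27me3 regions with the most H3K4me1 and no H3K9me3 included 135 kb around Des and Speg on chromosome 1, with 66.0 kb of H3K4me1 in 14 pieces, and 185 kb on chromosome 11 from Neurod2 to Ikzf3, with 58.0 kb in 15 pieces.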

How the data were processed

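Islands of 4 histone marks from 2 ChIP-seq experiments were used, 8 lists in all. The submitters' processing notes name SICER, BWA 0.7.5a, bedtools 2.17, SAMtools 1.3.1 and FastQC, and build mm10. No source used here gives the settings of these tools. Each line of a deposited list gives a position and a value between 0 and 1 that was read as the island's p-value (or q-value) from the authors' caller, which was used only to describe and filter islands. The 2 input samples were not used here.

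Islands were laid on a grid of 200 bp, and bases covered in both experiments were taken for each mark, also within each experiment, with Python 3.11.15, numpy 2.4.6 and pandas 2.3.3. Interval arithmetic was tested on simulated islands with known overlaps. Genes, starts and promoter bases came from RefSeq on GRCm38.p6. A gene was inside where any base within 1 kb of an end carried both marks. Overlapping genes can share an island. The class and gene lists were chosen with earlier results of these data known. Named genes were taken from 27 fixed genes, up to 4 members of each class in list order, the genes and regions with the most shared length and the longest genes. A few others, such as Hoxd12, Hoxa9, Lrat, Sfrp2, Insm1, Unc50, Unc5b, Kcnc1, Grin1 and most Wnt, Fox, Nkx and Cdkn genes, were picked once their values had been seen. Some genes that this rule names are not reported here. The closing section gives the alternatives tried.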

Additional observations from a re-analysis of the deposited data

How the results depend on the processing

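The 6 main results were the log2 ratio of shared length (-1.22), the share of H3K4me1 regions touching H3K27me3 (10.3%), and the shares of genes with H3K4me1 inside H3K27me3 at an end (6.73%) or in the body (7.75%), with H3K4me1 only at an end (46.9%) and with H3K27me3 only at an end (15.8%). They were recomputed under 20 settings, 2 of them chosen after seeing the data. Of 97 values, 75 stayed within 1.5 times the main value (for the log2 ratio, within the SD between experiments), 21 moved further and 1 changed sign. Taking either experiment alone gave a log2 ratio of -1.55 to -0.31, 13.4% to 19.98% of regions, 9.78% to 10.1% of genes at an end and 11.8% to 12.1% in the body. Bases covered in either experiment gave 21.3% of regions, 13.5% of genes at an end and 16.7% in the body. H3K4me1 of Exp1 with H3K27me3 of Exp2 gave 10.2% of genes at an end, and the reverse pairing 20.6% of regions and 12.1% of genes in the body. Keeping islands with a p at or below the median of their list gave 5.89% of regions, 2.65% of genes at an end, 3.12% in the body and 29.3% with H3K4me1 only. Removing H3K4me3 from H3K4me1 gave 3.30% at an end, 4.82% in the body and 18.1% with H3K4me1 only. Genes with no other gene within 5 kb had H3K27me3 only in 24.8% of cases. Taking H3K9me3 out of H3K27me3, chosen after seeing the data, turned the log2 ratio to 0.19 and left 4.72% of genes with H3K27me3 only. Where these values moved, the cause was not tested.

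As a replicate block, classes were formed within each experiment and counted where both gave the same one. This gave 6.82% of genes at an end, 8.04% in the body, 43.0% with H3K4me1 only, 13.5% with H3K27me3 only, a mean log2 ratio of -0.93 and 16.7% of regions. The labels pair the 2 marks of an experiment by its number alone. Over 21887 genes, the correlation between the 2 marks' differences of Exp1 from Exp2 was -0.011. This value cannot show whether the marks were paired, since it compares different marks and genes are not replicates.

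Of the 43 gene lists, 34 (Exp1 alone) and 37 (Exp2 alone) kept a share in the class within 1.5 times, 39 with H3K27me3 shortened by 5 kb at each end, and 17 at the stricter p. The precision is limited by 2 experiments a mark, by island lists without counts and by H3K27me3 drawn in steps of 5 kb.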

Other observations

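By bases covered in both experiments, several patterning genes beside Gata4 and Tfap2a had H3K27me3 only at their ends and H3K4me1 inside it within the body. They were picked from the 189 such genes once their values had been seen. A single experiment could still place H3K4me1 inside H3K27me3 at an end of such a gene. All 8 Lhx genes were in that class in Exp1, and 5 of 6 Irx genes in each experiment. Irx2 and Irx4, homeobox factors, shared 5.8 kb (Exp1) and 5.0 kb (Exp2), and 3.8 and 5.0 kb, with no H3K4me3 in either experiment. Pax7, a factor of neural crest and muscle, shared 13.4 and 7.4 kb within 98.5 kb of H3K27me3, also without H3K4me3. The limb factors Tbx4 and Tbx5 shared 3.4 and 1.0 kb, and 16.8 and 3.2 kb. Lhx4, a LIM-homeobox factor of the pituitary, shared 26.2 and 12.2 kb and had 4.8 and 3.4 kb of H3K4me3.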
